A study of Mus musculus with 3 samples.

Results

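The platelet-derived growth factor (PDGF) system of the aged mouse hippocampus was followed through 6 genes, the 4 ligand genes Pdgfa, Pdgfb, Pdgfc and Pdgfd and the 2 receptor genes Pdgfra and Pdgfrb, out of 31053 gene symbols in the count tables. They were chosen as the complete ligand and receptor family, with earlier results of these data known, and each of the 6 had UMIs in all 3 libraries. Each was read in 7 classes of cells, which were endothelial cells, pericytes, smooth muscle cells, fibroblasts, oligodendrocyte precursor cells (OPC), astrocytes and microglia. A cell was placed in a class when it held RNA of at least 3 of 6 marker genes of the class (2 of the 4 genes Cspg4, C1ql1, Lhfpl3 and Matn4 for OPC) and led every other class by a share of 2 in 6 markers. None of the 6 genes was a marker.

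Single cells were taken from the hippocampus of wild-type C57BL/6 mice labelled 2 years old, in 3 libraries of 10x Chromium 3′ v3.1 chemistry that form a single group. No young, mutant or treated samples were among them, so cell classes were compared within these libraries and nothing here compares ages or treatments. The labels describe papain digestion and removal of myelin with beads, which limits how far the recovered cells stand for the tissue, and the title of replicate 3 carries 25 months while its age label equals the others. According to the series text 6 hippocampi were used, but no label says which animal went into which library, so p-values measure only the spread between these libraries.

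PDGF proteins are secreted dimers that bind receptor tyrosine kinases on neighbouring cells. PDGF-A and PDGF-B are cut to their active form inside the producing cell, while PDGF-C and PDGF-D carry a CUB domain that proteases remove outside it. PDGFRA binds the A, B and C chains and PDGFRB the B and D chains. In the brain, PDGF-B from endothelium is known to hold pericytes on capillaries through PDGFRB, and PDGF-A is a mitogen of OPC through PDGFRA.

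On mm10 with the GENCODE annotation, Pdgfa (ENSMUSG00000025856.15) lies on the minus strand of chromosome 5 from 138976014 to 138997370. Pdgfb (ENSMUSG00000000489.7) lies on the minus strand of chromosome 15 from 79995874 to 80014977. Pdgfc (ENSMUSG00000028019.9) lies on the plus strand of chromosome 3 from 81036416 to 81214040, and Pdgfd (ENSMUSG00000032006.15) on the plus strand of chromosome 9 from 6168584 to 6378850. Pdgfra (ENSMUSG00000029231.15) lies on the plus strand of chromosome 5 from 75152292 to 75198215. All 6 genes are protein-coding genes, and the 3′ chemistry counts whole-gene UMIs without telling isoforms apart.

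Promoter windows of 300 bases, from 250 before to 50 after a RefSeq start on GRCm38.p6, were found for 4 of the 6 genes. Those of Pdgfra, Pdgfa and Pdgfd are shown because these genes had a narrow, a broad and an endothelium-led distribution over the classes below. They are written 5′ to 3′ on the strand of the gene, and capitals mark one of 3 motifs found on either strand. The TATA box was searched as TATAAA with no mismatch, the box of CCAAT as those letters, and the GC box as GGGCGG.
Pdgfra, chr5:75152001-75152300, plus strand: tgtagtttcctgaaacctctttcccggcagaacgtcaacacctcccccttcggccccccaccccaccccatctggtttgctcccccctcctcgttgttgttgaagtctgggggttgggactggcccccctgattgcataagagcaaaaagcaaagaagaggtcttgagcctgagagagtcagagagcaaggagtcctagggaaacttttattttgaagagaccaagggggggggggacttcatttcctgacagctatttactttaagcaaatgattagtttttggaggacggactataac
Pdgfa, chr5:138994895-138995194, minus strand: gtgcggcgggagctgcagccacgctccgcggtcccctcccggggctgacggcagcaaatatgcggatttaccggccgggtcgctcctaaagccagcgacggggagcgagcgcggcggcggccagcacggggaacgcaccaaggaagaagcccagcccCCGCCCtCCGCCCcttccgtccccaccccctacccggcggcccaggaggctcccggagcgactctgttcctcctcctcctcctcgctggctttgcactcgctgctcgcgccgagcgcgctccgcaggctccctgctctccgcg
Pdgfa, chr5:138994232-138994531, minus strand: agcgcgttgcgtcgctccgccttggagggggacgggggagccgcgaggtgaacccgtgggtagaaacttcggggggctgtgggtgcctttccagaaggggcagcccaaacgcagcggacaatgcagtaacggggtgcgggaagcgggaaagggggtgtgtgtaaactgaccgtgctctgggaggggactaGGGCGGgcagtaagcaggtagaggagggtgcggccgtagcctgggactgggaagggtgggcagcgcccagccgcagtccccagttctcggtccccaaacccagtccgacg
Pdgfd, chr9:6168236-6168535, plus strand: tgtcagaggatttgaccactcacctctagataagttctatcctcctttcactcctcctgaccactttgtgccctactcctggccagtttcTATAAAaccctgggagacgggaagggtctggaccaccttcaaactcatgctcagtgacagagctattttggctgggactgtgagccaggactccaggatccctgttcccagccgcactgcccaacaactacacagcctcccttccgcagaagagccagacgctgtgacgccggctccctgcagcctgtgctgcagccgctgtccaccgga

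The Pdgfra window held 51% G and C, 5 CpG and none of the 3 motifs. The Pdgfa windows were richer in G and C, with 73.3% and 37 CpG in the first and 67% and 24 CpG in the second, and they held 2 and 1 GC boxes. The Pdgfd window held 56.7% G and C and 1 TATA box, and the window of Pdgfc, at chr3:81036166-81036465, held 55% and none of the motifs. Over all 32851 windows of this length the median was 52.7% G and C with 7 CpG, and 35.7% held a GC box, 37.4% CCAAT and 13.6% a TATA box on either strand. A match describes letters in a window and is no measured binding site.

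Replicates 1, 2 and 3 held 45716237, 7185668 and 40377042 UMIs, and 6240, 945 and 4930 cells were kept, of which the 7 classes took 9608 of 12115. Endothelial cells (4770), astrocytes (2501) and microglia (1821) were numerous, OPC (267) and pericytes (155) were not, and smooth muscle cells (49, none in replicate 2) and fibroblasts (45) were few. The 7 fibroblasts of replicate 2 were under the minimum of 10 cells and entered neither means nor tests. Levels are given as CPM, the UMIs of a gene per 1000000 UMIs of the class in a library, and only the same gene is compared between classes. Every listed marker of a class was detected in at least 20% of its own cells. Kept libraries shared 1, 9 and 0 cell barcodes for replicates 1 and 2, 1 and 3, and 2 and 3. Intervals of CPM and of shares are exact 95% intervals and, like floors, cover counting error only. Those of a log2 difference are normal 95% intervals from the standard error of the fit.

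**Figure D1:**
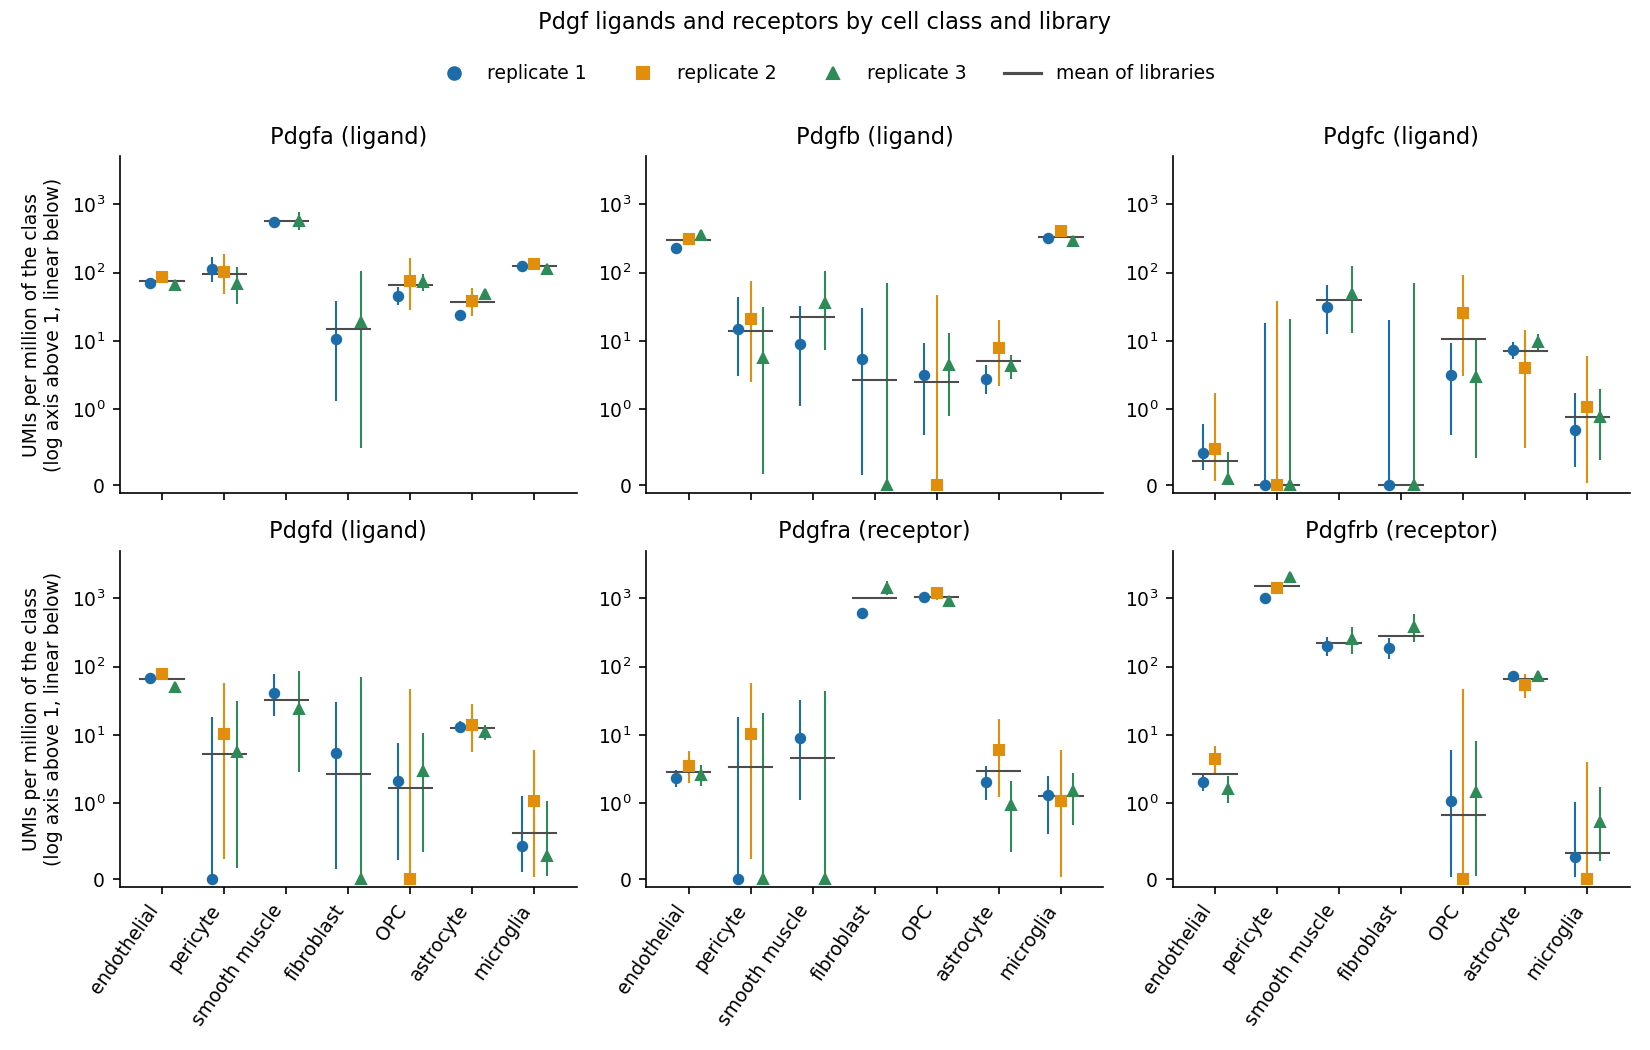
Level of each gene (vertical axis, CPM, logarithmic above 1 and linear below) in 7 cell classes (horizontal axis). Points are libraries with exact Poisson 95% intervals and lines are means. Pdgfra was near 1000 CPM in OPC and fibroblasts and at most 10.3 CPM in any library of the other classes, while Pdgfa was above 20 CPM in every library of each class but fibroblasts, where it rested on 3 UMIs.

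Endothelium carried Pdgfb, Pdgfd and, at a mean of 74.2 CPM, Pdgfa, and Pdgfb was abundant in microglia too. Pdgfb stood at 301.5 ± 65.5 CPM (SD, n = 3) in endothelial cells and 336.9 ± 60.2 CPM (SD, n = 3) in microglia, and at most 35.9 CPM in any library of the other 5 classes. Pdgfd stood at 66.2 ± 14.1 CPM (SD, n = 3) in endothelial cells and 0.605 CPM in microglia. Pdgfa was highest in smooth muscle cells, at 560 ± 20.6 CPM (SD, n = 2). Among the 7 classes the pooled level of Pdgfc was highest in smooth muscle cells, at 36.2 CPM from 11 UMIs. Astrocytes came next, at 8.28 CPM from 111 UMIs, and then OPC, at 4.13 CPM from 7 UMIs.

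Pdgfb, the chain that binds both receptors, gave 230.4, 315 and 359.2 CPM in endothelial cells of replicates 1, 2 and 3. In microglia it gave 315.9, 404.8 and 289.9 CPM. The endothelial and microglial values overlapped, and microglia were higher in replicates 1 and 2 and lower in replicate 3. Against the mean of the other 6 classes, taken over log2 levels, Pdgfb was higher by 4.66 ± 0.20 (log2, SE) in endothelial cells, with an adjusted p (Benjamini-Hochberg, quasi-likelihood test of edgeR) of 2.127e-21. In microglia it was higher by 5.31 ± 0.20, with an adjusted p of 9.137e-24 by the same edgeR test. The direct comparison put endothelial cells 0.56 ± 0.19 below microglia on the fit's scale (log2 -0.56, adjusted p 0.01141 in edgeR, where 58.3% of the 11741 genes tested were called). That call was lost without replicate 1 (-0.39, adjusted p 0.2193), without replicate 2 (-0.47, 0.08225) and without the library block (-0.55, 0.05389).

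RNA of endothelial markers was low in the microglia that carried Pdgfb. Part of this was set in advance, since the same markers placed the cells and a cell with many markers of a second class was left out. That limit holds for every comparison with markers of another class below, and carried RNA itself was not tested. The 6 endothelial markers stood in microglia at 0.408% to 1.63% of their endothelial level, while Pdgfb stood at 109.4% of its own. If Pdgfb had been carried into microglia in the same ratio as the summed markers, it would have given 1.07, 3.57 and 1.89 CPM in replicates 1, 2 and 3. An endothelial marker was present in 39.6%, 71.8% and 45.6% of microglia with a Pdgfb UMI and in 40.1%, 65.6% and 44.0% of those without one, which were shallower (median UMI counts of 6515, 3451 and 4940 against 8536, 11490 and 7575). In the reverse direction, the 6 microglial markers stood in endothelial cells at 0.406% to 0.526% of their microglial level, and Pdgfb at 91.4%.

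With cells thinned to 2000 UMIs and shallower cells left out, 41.6% ± 7.33 (SD, n = 3) of endothelial cells and 41.8% ± 1.98 (SD, n = 3) of microglia held a Pdgfb UMI. Unthinned, the shares were 69.4% and 66.8%, at median depths of 6604 and 7470 UMIs. Astrocytes, at a median depth of 3349 UMIs, gave 1.16% thinned and 1.76% unthinned. The thinning left out 492 endothelial cells, 213 microglia and 902 astrocytes.

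In mural cells, fibroblasts and neural cells Pdgfb was sparse. Pericytes gave 14.9, 20.6 and 5.67 CPM from 6 UMIs in all, smooth muscle cells 9.09 and 35.9 CPM from 5 UMIs, and astrocytes 2.81, 7.95 and 4.23 CPM from 49 UMIs. OPC held 6 UMIs and fibroblasts 1. Endothelial cells exceeded smooth muscle cells, the next class below, by 4.197 ± 0.478 (log2, SE; adjusted p 4.661e-09 in edgeR, 23.3% of genes called). Pericytes did not differ from smooth muscle cells (-0.69, interval -2.47 to 1.08) or from astrocytes (1.40, -0.02 to 2.81) beyond the error of the fit.

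Pdgfd, whose chain binds PDGFRB, gave 67.9, 79.4 and 51.3 CPM in endothelial cells. It gave 40.9 and 23.9 CPM in smooth muscle cells of replicates 1 and 3, from 11 UMIs, and 13.1, 13.9 and 10.9 CPM in astrocytes. Endothelial values lay above those of every other class in each library. Endothelial cells exceeded the mean of the other classes by 3.97 ± 0.22 (log2, SE; adjusted p 4.147e-18 in edgeR), smooth muscle cells by 2.82 ± 0.60 (0.0005483) and astrocytes by 1.18 ± 0.31 (0.001892). Without replicate 1 the smooth muscle and astrocyte calls of Pdgfd were lost, at 3.16 and 2.09. Smooth muscle cells and fibroblasts then kept only replicate 3, whose fibroblasts held no Pdgfd UMI. A class at 0 thus entered the mean of the others, so these losses cannot show smaller differences.

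Smooth muscle cells exceeded astrocytes in Pdgfd by 1.40 ± 0.52 (log2, SE; adjusted p 0.03738 in edgeR, 29% of genes called), a call lost without any 1 replicate, at adjusted p of 0.7371, 0.05505 and 0.06657 without replicates 1, 2 and 3, and under 4 other alternatives, DESeq2 among them. The difference between endothelial and smooth muscle cells did not pass the threshold (0.99, interval 0.15 to 1.83, adjusted p 0.09815 in edgeR). The 6 endothelial markers stood in astrocytes at 0.3% to 0.728% of their endothelial level and Pdgfd at 19.1%. In smooth muscle cells these markers stood at 0% (Cdh5) to 0.688%, and Pdgfd at 56.99%. Microglia held 6 Pdgfd UMIs in 14470826 (0.415 CPM, interval 0.152 to 0.903).

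Pdgfa, whose chain binds PDGFRA, was present in every class. Smooth muscle cells gave 545.4 and 574.5 CPM, microglia 124.3, 133.8 and 113.6 CPM, and pericytes 114.2, 102.8 and 68 CPM. Endothelial cells gave 70.6, 85.9 and 66.1 CPM, OPC 46.0, 76.3 and 71.9 CPM, and astrocytes 23.6, 37.8 and 48.2 CPM. Smooth muscle values lay far above all others, and microglial values lay above endothelial, OPC and astrocyte values in each library. Fibroblasts held 3 Pdgfa UMIs in 317560, at the floor of 9.45 CPM that 3 counts set.

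Smooth muscle cells exceeded the mean of the other classes in Pdgfa by 3.38 ± 0.24 (log2, SE; adjusted p 2.021e-14 in edgeR), and they exceeded microglia, the next class, by 1.65 ± 0.25 (1.24e-06, 33% of genes called). Microglia exceeded the mean of the other classes by 1.45 ± 0.19 (1.876e-08) and pericytes were 1.12 below microglia (log2 -1.12, 0.001627, 40% of genes called). No difference past the threshold was found between endothelial cells and pericytes (-0.01, interval -0.60 to 0.58) or between OPC and astrocytes (0.22, -0.31 to 0.75). Against the mean, endothelial cells stood at 0.13 with edgeR's TMM scaling and at -0.06 with RLE scaling and with DESeq2, never past the threshold. Smooth muscle markers stood in microglia at 0.0242% to 0.152% of their own level, and Pdgfa at 21.7%. In endothelial cells they stood at 0.0353% to 0.0987%, and Pdgfa at 12.8%. The gap was narrower in pericytes, where these markers stood at 0% (Cnn1) to 11.98% (Map3k7cl) and Pdgfa at 17.1%.

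Endothelial cells stood above OPC in Pdgfa by 0.86 ± 0.25 (adjusted p 0.003863 in edgeR, 57% of genes called), which was lost without replicate 1 (0.59, adjusted p 0.1316), with DESeq2 (0.57, 0.117) and with OPC placed without Cspg4 (0.42, 0.1548). The calls of lower Pdgfa in OPC (-0.88), astrocytes (-1.13) and fibroblasts (-3.08) against the mean were each lost without replicate 1, at adjusted p of 0.3287, 0.1366 and 0.1332 in edgeR. With only cells that met 1 class those in OPC and astrocytes were lost too (0.2108 and 0.09422), and that in OPC also with OPC placed without Cspg4 (0.2257) and with at least 20 cells (0.05808).

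Pdgfc, the activated-outside ligand that binds PDGFRA, was rare, with 236 UMIs in all kept cells. Smooth muscle cells gave 31.8 and 47.9 CPM from 11 UMIs in 10 cells. Astrocytes gave 7.24, 3.98 and 9.77 CPM from 111 UMIs, and OPC 3.21, 25.4 and 2.94 CPM from 7 UMIs. Microglia were near 0.902 CPM and endothelial cells near 0.323 CPM, and neither pericytes nor fibroblasts held a Pdgfc UMI. Over the pooled libraries the exact intervals of those zeros reach up to 7.77 CPM in pericytes and 11.6 CPM in fibroblasts. Smooth muscle cells, at 36.2 CPM pooled (interval 18.1 to 64.8), lay above both limits.

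Astrocytes exceeded endothelial cells in Pdgfc, where the fit gave -4.46 ± 0.56 for endothelium against astrocytes (log2, SE; adjusted p 1.309e-08 in edgeR, 65.9% of genes called). They also exceeded microglia, by 2.76 ± 0.58 (7.89e-05, 67.9% of genes called). Smooth muscle cells exceeded astrocytes by 2.12 ± 0.73 (0.02441), which was lost without replicate 1 (adjusted p 0.246) or replicate 3 (0.08976), with only cells that met 1 class (0.224) and with at least 20 cells (0.1422). Against OPC they stood 3.49 ± 0.89 higher (0.002772, 28.2% of genes called), which was also lost without replicate 1 (0.1273) or replicate 3 (0.05023) and with only cells that met 1 class (0.06944). The difference of OPC from astrocytes did not pass (-1.36, interval -2.72 to -0.01). Its p in edgeR was 0.05738 before and 0.1154 after adjustment, so the interval is narrower than the test allows. It did pass without replicate 2 (-1.95, adjusted p 0.0443) and with at most 10% mitochondrial UMIs (-2.48, 0.02861). Because 2 classes were at 0, no comparison with the mean of the other classes is given for Pdgfc.

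Pdgfra was the receptor gene of OPC and fibroblasts, and Pdgfrb that of pericytes, smooth muscle cells, fibroblasts and, at a lower level, astrocytes. Pdgfra stood at 1040 ± 140.7 CPM (SD, n = 3) in OPC and 1018 ± 586.6 CPM (SD, n = 2) in fibroblasts, against means of 1.30 to 4.55 CPM elsewhere. Pdgfrb stood at 1505 ± 519.3 CPM (SD, n = 3) in pericytes and 66.0 ± 10.6 CPM (SD, n = 3) in astrocytes. Endothelial cells, which held most of the Pdgfb and Pdgfd UMIs, held few of either receptor, at 2.83 and 2.71 CPM.

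Pdgfra, a marker used widely for OPC but not in placing these cells, gave 1035, 1182 and 901.2 CPM in OPC. In fibroblasts it gave 603.2 and 1433 CPM in replicates 1 and 3, and 943 CPM in the 7 fibroblasts of replicate 2. The 2 classes overlapped, and their difference was within the error of the fit (0.16, interval -0.35 to 0.66). OPC exceeded the mean of the other classes by 6.69 ± 0.19 (log2, SE; adjusted p 1.184e-26 in edgeR) and fibroblasts by 6.87 ± 0.27 (3.534e-22). Smooth muscle cells lay 6.90 below fibroblasts (log2 -6.90, 1.592e-11, 11.4% of genes called). Thinned to 2000 UMIs, 81.4% ± 2.73 (SD, n = 3) of OPC held a Pdgfra UMI, against 0.478% of endothelial cells. Unthinned, the shares were 93.3% and 1.95%, at median depths of 4722 and 6604 UMIs.

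Fibroblast markers, which also served to place the cells, were almost absent from OPC and the reverse. Col1a1, Lum, Col3a1 and Slc6a13 had no UMI in OPC, and Dcn and Col1a2 stood at 0.0118% and 0.05% of their fibroblast level. Cspg4, Lhfpl3 and Matn4 had no UMI in the fibroblasts of replicates 1 and 3, and C1ql1 stood at 4.48% of its OPC level. Pdgfra was called lower than the mean in endothelial cells, pericytes, astrocytes and microglia, each from at most 99 UMIs. Each of these 4 calls was lost without replicate 1 and with only cells that met 1 class. Those in endothelial cells, astrocytes and microglia were also lost without replicate 2 and with at least 20 cells, and that in pericytes without replicate 3 (0.08525). The endothelial value came as near to 0 as -0.31. Without replicate 1 smooth muscle cells held no Pdgfra UMI. Pericytes held none without replicate 2, or with at least 20 cells, which drops the 19 pericytes of that replicate. A class at 0 then entered the mean of the others, so the losses under these 3 settings cannot show whether Pdgfra was lower.

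Pdgfrb (ENSMUSG00000024620.11) lies on the plus strand of chromosome 18 from 61045150 to 61085061 and gave 1028, 1429 and 2058 CPM in pericytes of replicates 1, 2 and 3. In smooth muscle cells it gave 200 and 251.3 CPM, in fibroblasts 188.5 and 382.1 CPM, and in astrocytes 72.2, 53.7 and 72.0 CPM. Pericytes lay above all other classes in every library, and astrocytes below smooth muscle cells and fibroblasts. Endothelial cells gave 2.06, 4.46 and 1.62 CPM, and OPC and microglia held 2 and 7 UMIs in all.

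Pericytes exceeded the mean of the other classes in Pdgfrb by 6.54 ± 0.19 (log2, SE; adjusted p 2.513e-26 in edgeR), smooth muscle cells by 3.57 ± 0.34 (7.191e-11) and fibroblasts by 3.62 ± 0.36 (3.569e-10). Astrocytes exceeded it by 1.74 ± 0.23 (4.552e-08). Pericytes stood 2.51 ± 0.32 above fibroblasts (3.196e-07, 8.72% of genes called) and smooth muscle cells 1.57 ± 0.32 above astrocytes (0.0001932), a call lost when only cells that met 1 class were used (1.12, adjusted p 0.1218). The difference between smooth muscle cells and fibroblasts was within the error of the fit (-0.04, interval -0.80 to 0.72). The 6 pericyte markers stood in smooth muscle cells between 0% (Kcnj8 and Abcc9) and 30.8% (Higd1b) of their pericyte level and in fibroblasts between 0% (Higd1b) and 25.02% (Vtn). Pdgfrb, at 14.35% and 16.03%, lay inside both ranges. Pericyte markers together gave 2750 and 1628 CPM in smooth muscle cells with a Pdgfrb UMI (replicates 1 and 3). Those without one gave 913.2 and 232.6 CPM, the latter from 2 cells. Fibroblasts with one gave 4648, 7425 and 4878 CPM in replicates 1, 2 and 3, and those without 2674, 16290 (1 cell) and 4450 CPM. The part of carried pericyte RNA in the smooth muscle and fibroblast levels of Pdgfrb was not tested.

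The astrocyte level of Pdgfrb lay outside the range of the pericyte markers, which also served to place the cells. Those markers stood in astrocytes at 0.0329% (Kcnj8) to 0.952% (Atp13a5) of their pericyte level, with a median of 0.0912%, and Pdgfrb at 4.79%. Carried over in the ratio of the summed markers, Pdgfrb would have given 1.28, 1.88 and 2.71 CPM in replicates 1, 2 and 3, against the measured 72.2, 53.7 and 72.0 CPM. In endothelial cells the same calculation gave 1.44, 4.24 and 1.65 CPM against the measured 2.06, 4.46 and 1.62 CPM. A pericyte marker was present in 13.3%, 27.3% and 22.5% of astrocytes with a Pdgfrb UMI and in 9.60%, 9.68% and 10.9% of those without. The former were deeper, with median UMI counts of 5382, 10270 and 10680 against 2375, 1328 and 2428. Pericyte markers together gave 31.1, 29.6 and 50.1 CPM in astrocytes with a Pdgfrb UMI and 29.8, 33.7 and 24.6 CPM in those without.

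**Figure D2:**
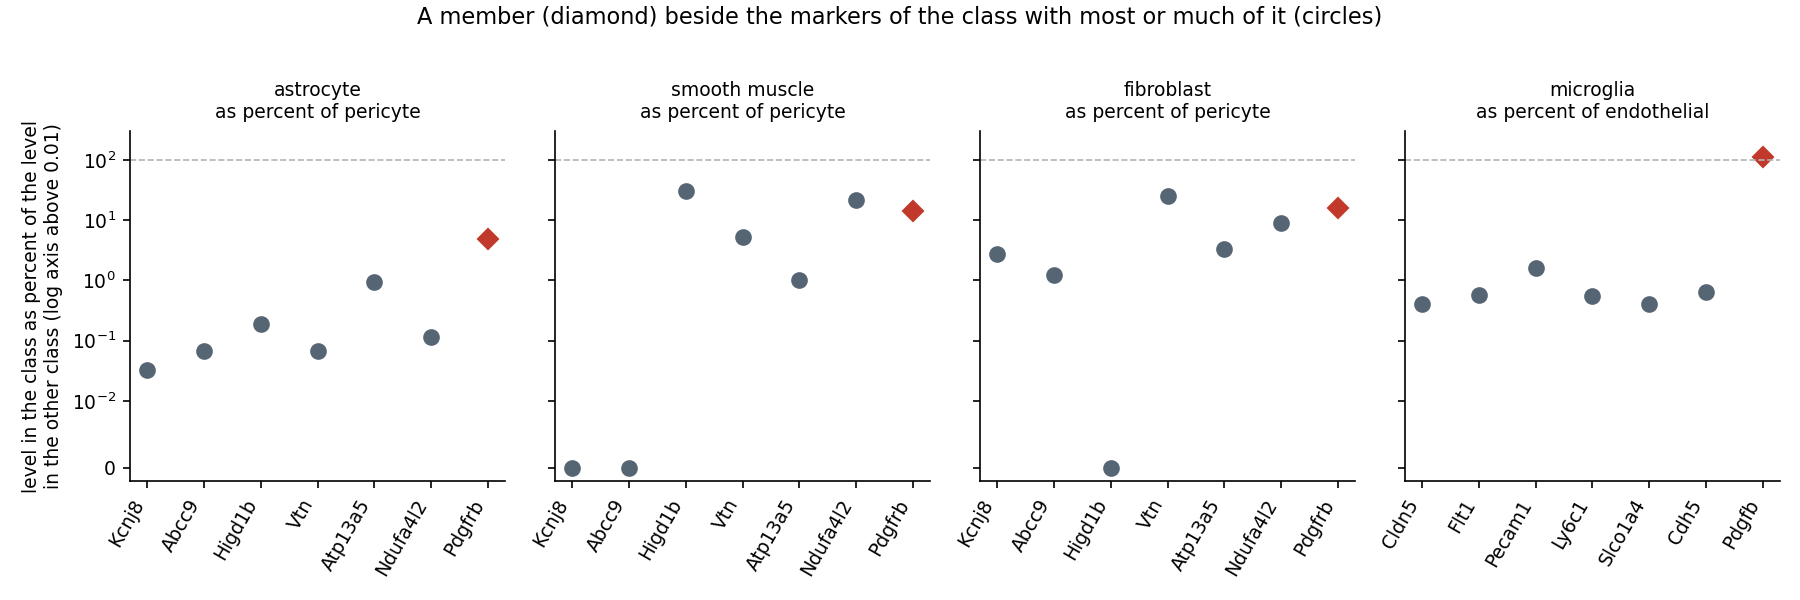
Level of a gene in one class as percent of its level in another (vertical axis, logarithmic above 0.01), for markers of that other class (circles) and for Pdgfrb or Pdgfb (diamonds). Pdgfrb lay above all 6 pericyte markers in astrocytes (4.79% against at most 0.952%) but within their range in smooth muscle cells and fibroblasts, and Pdgfb in microglia lay above all 6 endothelial markers. The markers shown also served to place the cells.

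Thinned to 2000 UMIs, 91.0% ± 6.42 (SD, n = 3) of pericytes and 13.6% ± 3.94 (SD, n = 3) of astrocytes held a Pdgfrb UMI, against 0.745% of endothelial cells and 0.13% of microglia. Unthinned, the shares were 89.7%, 27.3%, 1.26% and 0.384%, at median depths of 2805, 3349, 6604 and 7470 UMIs. The astrocyte share was 16%, 9.09% and 15.8% in replicates 1, 2 and 3, and the thinning left out 902 of 2501 astrocytes and 46 of 155 pericytes.

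The receptors split the classes. Pdgfra made up 99.9% of the receptor UMIs of OPC (interval 99.57 to 99.99), 77.5% in fibroblasts (72.7 to 81.9), 2.34% in astrocytes (1.49 to 3.50) and 0.141% in pericytes (0.00357 to 0.782). The fibroblast share was 76.2%, 78.1% and 78.95% in replicates 1, 2 and 3. Of 45 fibroblasts, 28 held UMIs of both receptors, 13 of Pdgfra only and 2 of Pdgfrb only. Both receptors were seen together in 2 of 267 OPC, 1 of 155 pericytes, 8 of 2501 astrocytes and 2 of 49 smooth muscle cells.

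**Figure D3:**
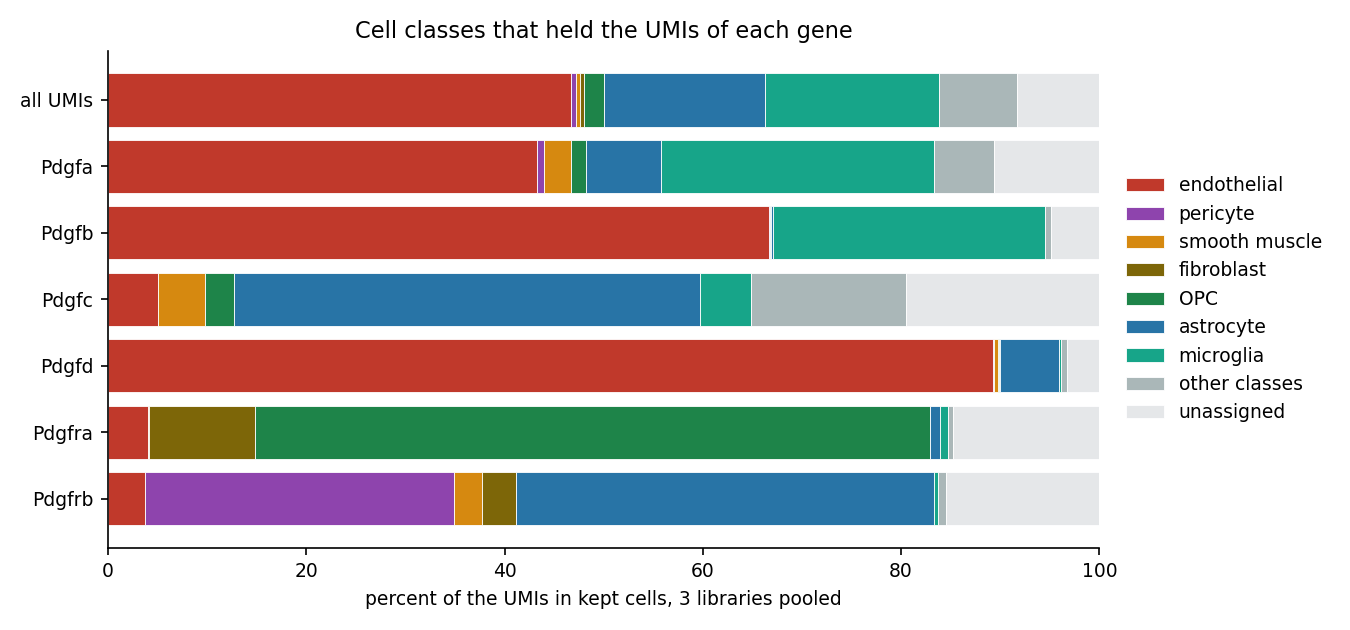
Share of the UMIs of each gene held by each cell class (horizontal axis, percent of UMIs in kept cells, 3 libraries pooled), with all UMIs on top. Endothelial cells held 46.7% of all UMIs but 89.3% of Pdgfd and 66.7% of Pdgfb UMIs, and astrocytes held 42.2% of Pdgfrb UMIs against 31.2% in pericytes, an order reversed in replicate 2.

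Because classes differ in number, the class with the highest level did not always hold most of the RNA. Astrocytes, with 20.6% of the kept cells, held 42.2% of all Pdgfrb UMIs, and pericytes, with 1.28% of the cells, held 31.2%, over the pooled libraries. The order was reversed in replicate 2, where pericytes held 60.4% and astrocytes 11.7%, while in replicates 1 and 3 astrocytes held 49% and 42.3% and pericytes 20.7% and 34.8%. OPC held 68.1% of Pdgfra UMIs and fibroblasts 10.7%. Endothelial cells held 43.3% of Pdgfa UMIs and smooth muscle cells 2.66%, in spite of the level in smooth muscle. Unassigned cells held between 3.28% (Pdgfd) and 19.5% (Pdgfc) of the UMIs of a gene. These shares depend on which cells survived dissociation.

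By class, of the 5 genes other than Pdgfc, 2 were higher and 2 lower than the mean in endothelial cells, where 42.5% of the 11741 genes tested were called in either direction. In pericytes 1 was higher and 1 lower (13.4% of all genes called), in smooth muscle cells 3 were higher (14.4%), and in fibroblasts 2 were higher and 1 lower (11.1%). In OPC 1 was higher and 4 lower (42.2%), and in astrocytes 2 were higher and 3 lower (48%), as in microglia (50.1%). Without replicate 1 the members called fell to 1 higher and 1 lower in OPC and 1 higher in astrocytes. They fell to 2 higher and 1 lower in microglia and in endothelial cells, and to 1 higher in pericytes. Smooth muscle cells and fibroblasts then kept a single library, so no counts are given for them. Their lost calls, of Pdgfd and Pdgfa, are named above. In that library smooth muscle cells held no Pdgfra UMI and fibroblasts none of Pdgfb or Pdgfd. For these genes a class at 0 then entered the mean of the others, so the lower counts cannot show smaller differences. With only cells that met 1 class the members called were 1 higher and 1 lower in OPC and 2 higher in astrocytes. They were 2 higher and 1 lower in microglia and in endothelial cells, and 1 higher in pericytes, as for pericytes without replicate 3. Calls were common among all genes in the numerous classes, and the counts of members there are not read as set apart from that background.

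**Figure D4:**
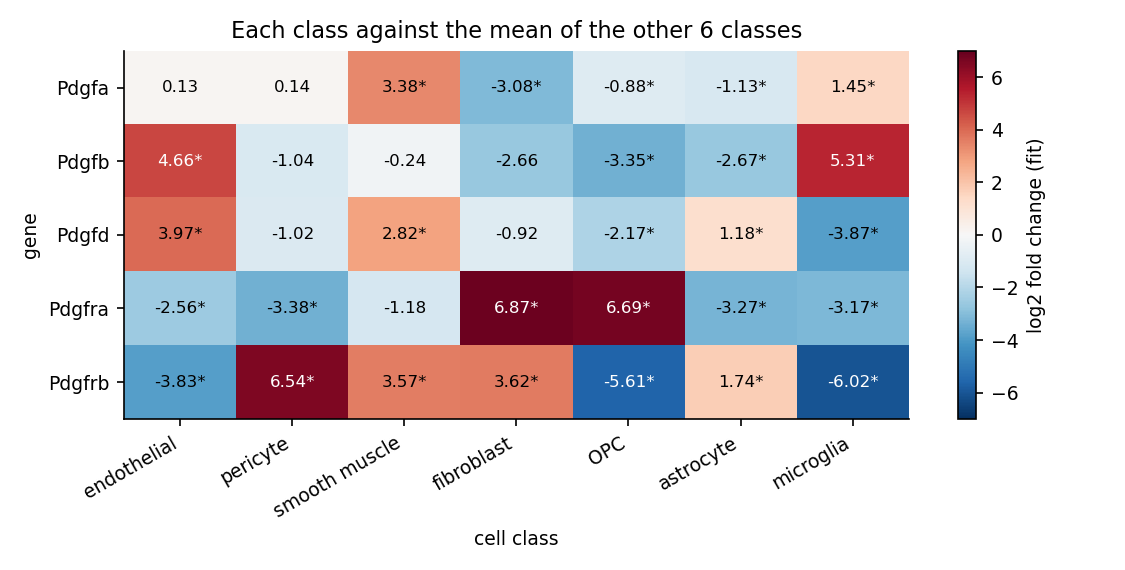
Fitted log2 difference of each class from the mean of the other 6 classes (colour and number) for the 5 genes with UMIs in every class, asterisks marking an adjusted p under 0.05 in edgeR. Pdgfrb ranged from 6.54 in pericytes to -6.02 in microglia, and Pdgfa from 3.38 in smooth muscle cells to -3.08 in fibroblasts.

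Along the endothelium, Pdgfa, Pdgfb and Pdgfd had their highest means in arterial cells. Endothelial cells were divided by further markers (2 of 6 and the most of any subset, none of them a PDGF gene) into 404 arterial, 3778 capillary and 63 venous cells, counting libraries with at least 10 (replicate 2 had 1 venous cell), and tip-like cells were too few to use. Pdgfa gave 219, 392.5 and 207.2 CPM in arterial cells, 37.6, 44.5 and 39.9 CPM in capillary cells, and 81.7 and 58.5 CPM in venous cells of replicates 1 and 3. The 3 subsets did not overlap in Pdgfa. Arterial cells exceeded the mean of the other subsets by 2.12 ± 0.13 (log2, SE; adjusted p 1.759e-11 in edgeR) and capillary cells lay below it (log2 -1.84 ± 0.16, 1.74e-08), where 17.3% and 11.3% of 10175 genes were called.

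Pdgfd gave 95.5, 113.5 and 78.1 CPM in arterial, 63.6, 74.9 and 45.7 CPM in capillary, and 27.2 and 37.0 CPM in venous cells. Arterial values were above capillary ones in every library, and venous values were lowest. Arterial cells exceeded the mean of the others by 1.07 ± 0.16 (adjusted p 1.454e-05 in edgeR). Pdgfb gave 302.5, 652.7 and 331.2 CPM in arterial, 229.9, 267.3 and 370 CPM in capillary, and 78.3 and 206.3 CPM in venous cells. Arterial and capillary values of Pdgfb overlapped, and arterial cells were lower than capillary cells in replicate 3.

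Pdgfb in arterial cells exceeded the mean of the others by 0.98 ± 0.18 (adjusted p 0.0002871 in edgeR). Against capillary cells alone it was higher by 0.49 ± 0.17 (0.04705, 18.3% of genes called), which was lost without replicate 2 (0.16, adjusted p 0.5727) and with 3 subset markers needed (0.49, 0.05764). Capillary cells did not pass against the mean of the others in Pdgfb (0.25), but did without replicate 2 (0.49, 0.0398). Venous cells were lower than the mean in Pdgfb (log2 -1.22, 0.001154) and Pdgfd (-1.16, 0.002274), where 12.4% of genes were called. Both venous calls were lost without replicate 1 (Pdgfb -0.82, adjusted p 0.05682, and Pdgfd -0.68, 0.3989). Venous cells had a median of 23120 UMIs in replicate 1 and 5314 in replicate 3, against 6938 and 5545 in capillary cells. With all 3 libraries, no receptor gene passed the filter for the subsets, and without replicate 3 Pdgfrb did, with no comparison past the threshold.

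**Figure D5:**
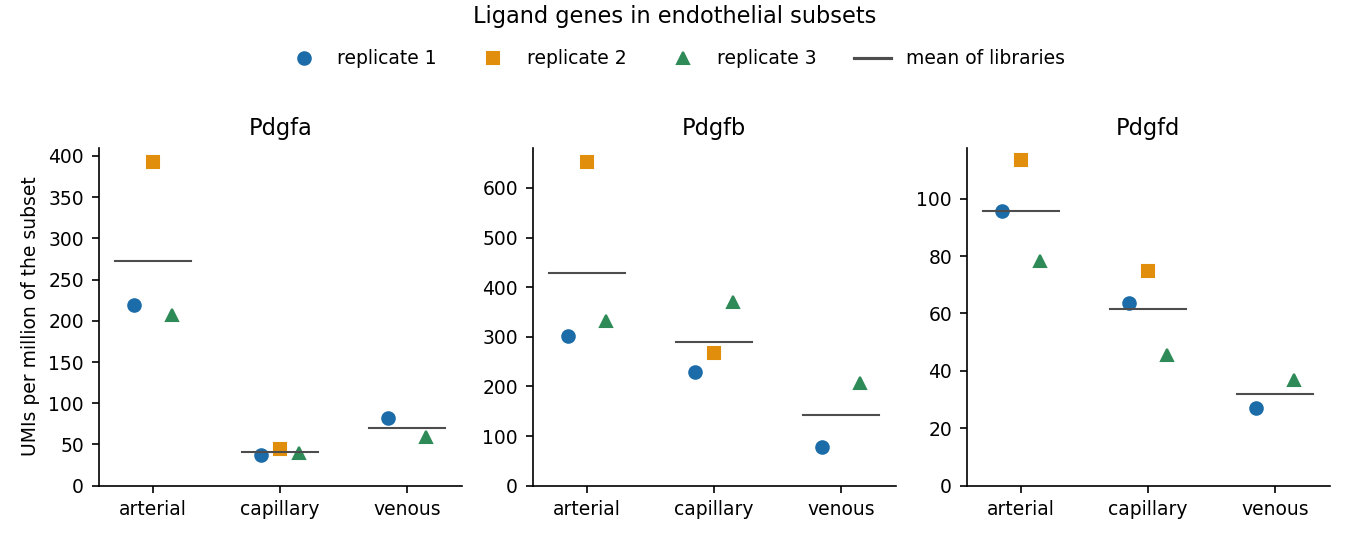
Level of Pdgfa, Pdgfb and Pdgfd (vertical axes, CPM within the subset, starting at 0) in arterial, capillary and venous endothelial cells, with points for libraries and lines for means. Arterial cells had the highest mean of each gene, 272.9, 428.8 and 95.7 CPM, and replicate 2 the highest arterial value.

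Genes with known roles around PDGF signalling (36 listed, 34 tested) were read in the same comparisons. They comprised proteases that process the ligands, proteins that bind ligands or receptors, adaptors and kinases below the receptors, and ligases and phosphatases that switch them off. In endothelial cells 17 were higher and 8 lower than the mean of the other classes (42.5% of all genes called), with a median log2 difference of 0.48 beside 0.20 over all genes tested. Without replicate 1 the counts were 13 and 3. Nrp1, a co-receptor, was higher by 4.61 at 154.6 ± 3.93 CPM (SD, n = 3), and Plat, the tissue plasminogen activator that can activate PDGF-C, by 3.38 at 997.7 ± 376.7 CPM. Fibroblasts held no Nrp1 UMI in the libraries used, so the size of the 4.61 depends on how the fit treats a class at 0. Pericytes had the next highest mean of Nrp1, at 58.4 CPM. Lrp1, an endocytic receptor that interacts with PDGFRB, was lower by -4.85 at 10.8 ± 2.69 CPM, and Pdgfrl, a receptor-like protein, by -4.66 at 0.42 CPM, a call of Pdgfrl lost without replicate 1 and with only cells that met 1 class.

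In microglia 13 of these genes were higher and 12 lower (50.1% of all genes called), with a median of 0.06 beside 0.08 over all genes. Ptprj, a receptor-type phosphatase that acts on PDGF receptors, was higher by 5.14 at 130.1 ± 21.2 CPM (SD, n = 3). Smooth muscle cells held no Ptprj UMI, so the size of the 5.14 depends on how the fit treats a class at 0. OPC had the next highest mean of Ptprj, at 97.1 CPM. Plau, the urokinase that can activate PDGF-D, was higher by 5.13 at 174.3 ± 100.9 CPM. Hspg2, the heparan sulfate proteoglycan perlecan, and Nck2, an adaptor, were lowest, at -4.98 and -4.53, with 1.06 and 0.297 CPM, and the call of Nck2 was lost without replicate 1.

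In pericytes 11 were higher and 1 lower (13.4% of all genes called), with a median of 0.11 beside 0.05 over all genes, and without replicate 1 the counts were 7 and 1. Nck2 was higher by 2.73 at 56.6 ± 15.2 CPM (SD, n = 3) and Plau by 2.71 at 61.2 ± 38.3 CPM, whereas Plcg1, the phospholipase that docks on the receptors, was lower by -2.40 at 10.3 CPM, a call lost without replicate 1 or replicate 3. In fibroblasts 9 were higher and 1 lower (11.1% of all genes called, median -0.38 beside -0.18), and without replicate 1 the counts were 4 and 0. Pdgfrl and Hspg2 led them, higher by 5.66 at 257.8 ± 67.6 CPM (SD, n = 2) and by 4.13 at 231.9 ± 23.3 CPM, and Nrp1 had no UMI there in replicates 1 and 3, a call lost without replicate 1, with only cells that met 1 class and with at least 20 cells.

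In astrocytes 11 were higher and 10 lower (48% of all genes called, median -0.05 beside 0.21), and without replicate 1 the counts were 7 and 6. Pcsk6, a proprotein convertase, was higher by 4.39 at 72.7 ± 22.0 CPM (SD, n = 3) and the kinase gene Src by 2.08 at 67.7 ± 14.7 CPM, while Plau and Plat were lower by -3.10 and -3.08 at 1.53 and 25.4 CPM. The Plau call was lost without replicate 1, with at most 10% mitochondrial UMIs and with only cells that met 1 class. In OPC 8 were higher and 11 lower (42.2% of all genes called, median -0.19 beside 0.09). Fyn, a kinase of the same family as Src, was higher by 3.34 at 395.6 ± 230.3 CPM (SD, n = 3) and Ptprj by 3.29 at 97.1 ± 26.1 CPM. For Ptprj the size of this difference also depends on smooth muscle cells, which held no UMI of it. Plau and Sparc, a matrix protein that binds PDGF, were lower by -3.99 and -3.97 at 0.713 and 90.3 CPM, and the Plau call was lost with only cells that met 1 class (-1.80, adjusted p 1 in edgeR).

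In smooth muscle cells 3 were higher and 1 lower (14.4% of all genes called, median 0.13 beside -0.20), a count that rose to 7 with RLE scaling or DESeq2 and fell to 0 without replicate 1. Nck2 was higher by 1.86 (adjusted p 0.04194 in edgeR, lost without any 1 replicate and under 5 other alternatives) and Plat by 1.67 at 335 ± 169.1 CPM (SD, n = 2), a call of Plat lost without replicate 1. The mean of the other classes is taken over log2 levels, so Plat could pass although the plain mean of the other classes was 412.8 CPM. Ptprj had no UMI in smooth muscle cells, a call also lost without replicate 1, with only cells that met 1 class and with at least 20 cells. Over all genes, the scaling moved the median difference in endothelial cells from 0.20 with TMM to 0.02 with RLE and -0.10 with DESeq2, and in microglia from 0.08 to 0.01 and -0.18. Calls over all genes split into 3468 higher and 1522 lower in endothelial cells with TMM, 2739 and 1989 with RLE and 2625 and 3506 with DESeq2. In microglia they split into 3552 and 2326 with TMM and 3241 and 3845 with DESeq2, and in fibroblasts into 988 and 318 and 1140 and 157.

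The genes whose log2 CPM followed each member most closely over the 19 profiles of library and class are given as a description, with Pearson's r and no test, since profiles of 1 library share its cells and depth. Sod3, the secreted superoxide dismutase, followed Pdgfrb with r = 0.982, ahead of Heyl (0.961), a Notch target, Lhfp (0.958), Vstm4 (0.954) and S1pr3 (0.951). Mknk2 followed Pdgfb with r = 0.955, ahead of Cd34 (0.951), Rpl38 (0.945), F11r (0.935) and Casp8 (0.930). Ryr3 followed Pdgfra with r = 0.950, ahead of Zfp536 (0.932), Gria3 (0.924), Snhg11 (0.894) and Abca6 (0.892). The closest genes were less close for Pdgfa (Eif5b, 0.887), Pdgfd (P4ha2, 0.891) and Pdgfc (Palld, 0.886).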

How the data were processed

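The authors deposited 1 table of whole-number UMI counts a library, with a value for each gene in each cell barcode. Cell Ranger and the mm10 build are named in the submitters' processing notes (version not given in the sources used here). The lowest total of a barcode was 500 UMIs. Of 31053 symbols, 2412 whose hyphens had become dots were restored, and 30464 were found in GENCODE M21.

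Cells were kept with at least 500 UMIs, 300 genes and at most 20% mitochondrial UMIs. Scrublet in scanpy 1.11.5 (doublet rate 0.06) called 172, 9 and 135 doublets in replicates 1, 2 and 3, which were removed. Markers of 17 classes placed the cells, and 1567 of 12115 stayed unassigned. Summing the UMIs of each class in each library, where it had 10 cells or more, gave 19 profiles. All were fitted together under R 4.3.3 with edgeR 4.0.16 and limma 3.58.1, and the quasi-likelihood test of edgeR was used after filterByExpr with TMM factors. Libraries entered as blocks, and p-values were adjusted by Benjamini-Hochberg over 11741 genes, at a threshold of 0.05. The library is the block because the classes of a library share its cells and depth. Standard errors were derived from the fitted change and its F statistic, and intervals of a difference are normal 95% intervals from them. They do not use the degrees of freedom of the test and are therefore somewhat too narrow. The test was tried on simulated counts with known changes.

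Members, lists and tests were chosen with earlier results of these data known. The text names the 6 members, the 2 highest and 2 lowest called genes of the list of genes around PDGF signalling per class, and the genes most alike to each member (5 listed, of which at least the first is named), leaving out markers and predicted gene models. Neighbouring classes in the order of a gene were compared where the higher one had at least 5 CPM and 5 UMIs, a limit set after the values were seen, which gave 28 pairs, 17 of them past the threshold. Floors are 3 counts. Detection shares were taken after thinning cells to 2000 UMIs. Alternatives were RLE scaling, DESeq2 1.42.0, no filter, no block, leaving out each library, a mitochondrial limit of 10%, doublets kept, stricter or exclusive classes, OPC without Cspg4, and 5 or 20 cells as the minimum.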

Additional observations from a re-analysis of the deposited data

Results flagged for a closer look

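RNA of the PDGF genes was also found in cells outside the 7 classes, and the comparisons did not use these cells. Only levels resting on more than 3 UMIs were listed, so each lay above the floor of 3 counts by that rule. The part of carried RNA in these levels was not tested. Border macrophages (97 cells), the macrophages of vessels and meninges, held 49.8 CPM of Pdgfa, 78.0 CPM of Pdgfb and 44.8 CPM of Pdgfc over the pooled libraries, where 3 counts make 4.98 CPM. Their Pdgfc rested on 27 UMIs (interval 29.5 to 65.2 CPM), of which 24 came from replicate 1, and their Pdgfa on 30, of which 26 did. Without replicate 1 the pooled levels were 24.1 CPM of Pdgfa (4 UMIs), 108.3 CPM of Pdgfb and 18.1 CPM of Pdgfc (3 UMIs). Border macrophages held no UMI of Pdgfd, Pdgfra or Pdgfrb. Ependymal cells (752), which line the ventricles, held 61.0 CPM of Pdgfa, 7.71 CPM of Pdgfb, 1.84 CPM of Pdgfc, 2.75 CPM of Pdgfd, 1.65 CPM of Pdgfra and 3.49 CPM of Pdgfrb, where 3 counts make 0.551 CPM. Their Pdgfd was 1.83 CPM without replicate 1 and 5.38 CPM without replicate 3. Their Pdgfa was 57.7, 60.8 and 62.5 CPM in replicates 1, 2 and 3. The 8 oligodendrocytes held 269.2 CPM of Pdgfa from 9 UMIs (interval 123.1 to 511.1 CPM), and the 14 neurons 158 CPM from 12 UMIs (81.6 to 275.9 CPM), where all 12 UMIs came from replicate 1 and none from the 5 neurons of the others.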

How the results depend on the processing

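Of 106 tested results, 1190 of 1304 values under the alternatives kept direction and side of the threshold. Of the calls of a gene higher in a class or in arterial endothelium, 192 of 194 did. The exceptions were Pdgfd without replicate 1 in smooth muscle cells (3.16, left-out range 2.92 to 3.16) and astrocytes (2.09, range 1.17 to 2.09). Fibroblasts then held no Pdgfd UMI, so the mean of the others included a class at 0. Without the library block, the Pdgfb difference between endothelium and microglia lost its call (-0.55, adjusted p 0.05389 in edgeR), and no other call of a member or named pathway gene changed with the block. Each value that changed sign missed the threshold on both sides. Pdgfa in endothelium came to -0.060 with RLE scaling and -0.057 with DESeq2. Pdgfa in pericytes came to -0.21 with exclusive classes and ranged from -0.28 to 0.43 with a library left out. Pdgfa in endothelium against pericytes came to 0.070 without the filter, 0.013 without the replicate block, 0.41 with exclusive classes and 0.037 with OPC placed without Cspg4, and ranged from -0.11 to 0.29 with a library left out. Pdgfb ranged from -1.12 to 1.68 in smooth muscle cells and from -1.90 to 0.495 in pericytes against smooth muscle cells, with 0.21 for exclusive classes. Pdgfd ranged from -1.55 to 0.76 in pericytes, with 0.30 for exclusive classes, and from -0.20 to 0.31 in capillary endothelium. Pdgfra in fibroblasts against OPC ranged from -0.32 to 0.67, with -0.71 for exclusive classes and -0.35 for at least 20 cells, a setting that gave 0.35 in smooth muscle cells. Pdgfrb in smooth muscle cells against fibroblasts ranged from -0.28 to 0.15, with 0.19 for at least 20 cells. Genes called in all came to 4954 in OPC, 5633 in astrocytes, 1306 in fibroblasts and 1695 in smooth muscle cells. Without replicate 1 they came to 3092, 3672, 458 and 689, and without replicate 2 to 4662, 5312, 1285 and 1665. Exclusive classes gave 797 in fibroblasts and 939 in smooth muscle cells. Pathway genes called fell without replicate 1 from 21 to 13 in astrocytes, from 25 to 16 in endothelium and from 10 to 4 in fibroblasts. Fewer profiles remain where a library is left out, and for Pdgfra, Pdgfb and Pdgfd a class then stood at 0 UMIs, as named above. The part of either in the lost calls, and other causes, were not tested. Of 102 detection shares at other thinning depths or without thinning, 37 moved by less than 1 SD. Smooth muscle cells and fibroblasts, with 49 and 45 cells, limit what could be detected.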
